A study of Mus musculus with 8 samples.

Results

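The 10 genes described here encode steroid dehydrogenases and reductases, and they were taken by symbol from the 55487 genes in the count matrix: Hsd3b2, Hsd3b3, Hsd3b5, Hsd3b7, Hsd11b1, Hsd17b2, Hsd17b6, Hsd17b13, Srd5a1 and Akr1d1. The paper gives the source of the RNA as the stromal vascular fraction of subcutaneous tumors of MC38, a mouse colorectal cancer line. By its account, GFP-labelled cancer cells had been removed by sorting. There were 4 samples labelled as from Bmal1+/+ mice and 4 labelled as from Bmal1-/- mice, a conventional germline deletion of the clock factor Bmal1, all bearing the same tumor line, with 1 library each. The comparison asks how gene expression in the tumor host differs without this clock gene. The age of the mice, their sex and the time of day of collection are not given in the sources used here.

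Steroid dehydrogenases pass hydrogen between a steroid hydroxyl or keto group and a nicotinamide cofactor, and so switch hormones such as glucocorticoids, androgens and estrogens between active and weak forms. Steroid reductases saturate the double bond of the A ring, which is a first step in the clearance of these hormones and, for some enzymes, part of bile acid synthesis. The liver expresses many of these enzymes, and in the mouse several of them differ between males and females.

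The RNA of the targeted gene ran in the reverse order of its labels. Bmal1 (Arntl) had a mean of 1.55 ± 0.814 CPM (SD, n = 4) under the label Bmal1+/+ and of 32.6 ± 2.00 CPM (SD, n = 4) under Bmal1-/-, so each group is called by its label throughout. A count per gene does not show which exons were read. CPM are counts scaled to library size with TMM factors. Xist, a transcript of females, ranged from 843.8 to 1095 CPM in libraries labelled Bmal1+/+ and was at most 0.749 CPM in the libraries labelled Bmal1-/-, so genotype and sex cannot be told apart. Transcripts of hepatocytes, the main cells of the liver, were abundant, although the libraries are labelled as a tumor stromal fraction. The tissue of origin was not tested, so the levels below may not be those of tumor stroma. The 16 hepatocyte markers summed to between 123600 and 136500 CPM in libraries labelled Bmal1+/+ and to between 87600 and 104700 CPM in the others. Of the 16, 1 fell and 3 rose. The lower sum came from Alb, which had between 64320 and 71870 CPM against between 12740 and 18830 CPM. Without Alb, the markers summed higher in every library labelled Bmal1-/- than in any labelled Bmal1+/+. Fibroblast and stellate cell markers summed to between 156.3 and 246.3 CPM and between 118.7 and 124.1 CPM. Most of this was Dcn, with between 94.2 and 149 CPM and between 71.6 and 74.5 CPM. Fap, a fibroblast marker of the paper, did not exceed 0.39 CPM in any library. Of the 10 markers in this list 5 fell and 0 rose. Macrophage markers summed to between 313.8 and 389.5 CPM and between 143.2 and 267.6 CPM. Endothelial markers summed to between 283.8 and 320.8 CPM and between 189.3 and 257.3 CPM. Of 8 markers of adrenal and gonadal steroid cells 4 were at 0 in every library. In the libraries labelled Bmal1+/+ the list summed to between 95.9 and 384.6 CPM, nearly all of it Cyp17a1, and in the others it summed to between 1.92 and 4.93 CPM, spread over Cyp21a1, Cyp17a1 and Insl3. Of 6 kidney tubule markers 3 were at 0 in every library, and the list summed to at most 1.66 CPM. Of 6 colon epithelial and tumor markers 2 were at 0 in every library, and the list summed to at most 8.32 CPM. Fewer cells of a type and less RNA per cell cannot be told apart in bulk RNA, and the part of these differences in the results was not tested. Library totals ranged from 14054825 to 18449143, and a count of 3, taken as the detection floor, was worth between 0.167 and 0.213 CPM, which covers counting error only.

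All 10 genes passed the filter on low counts. By the quasi-likelihood test of edgeR with p adjusted by Benjamini-Hochberg, 6 rose in the libraries labelled Bmal1-/- (Hsd3b5, Hsd3b2, Hsd3b7, Srd5a1, Hsd17b2 and Hsd3b3), against 14.9% of the 14353 tested genes, and 3 fell (Akr1d1, Hsd11b1 and Hsd17b13), against 16.2%. Hsd17b6 did not pass the test. With the criterion in the study's methods, more than a 1-unit difference on the log2 scale at p below 0.05 before adjustment, 4 were higher (background 5.41%) and 2 lower (background 8.71%). The values of both labels did not overlap for 5 genes that were higher (background 16.7%) and 3 that were lower (background 16.8%). The median log2 fold change was 0.97 over the 10 genes and 0.02 over all tested genes.

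**Figure D1:**
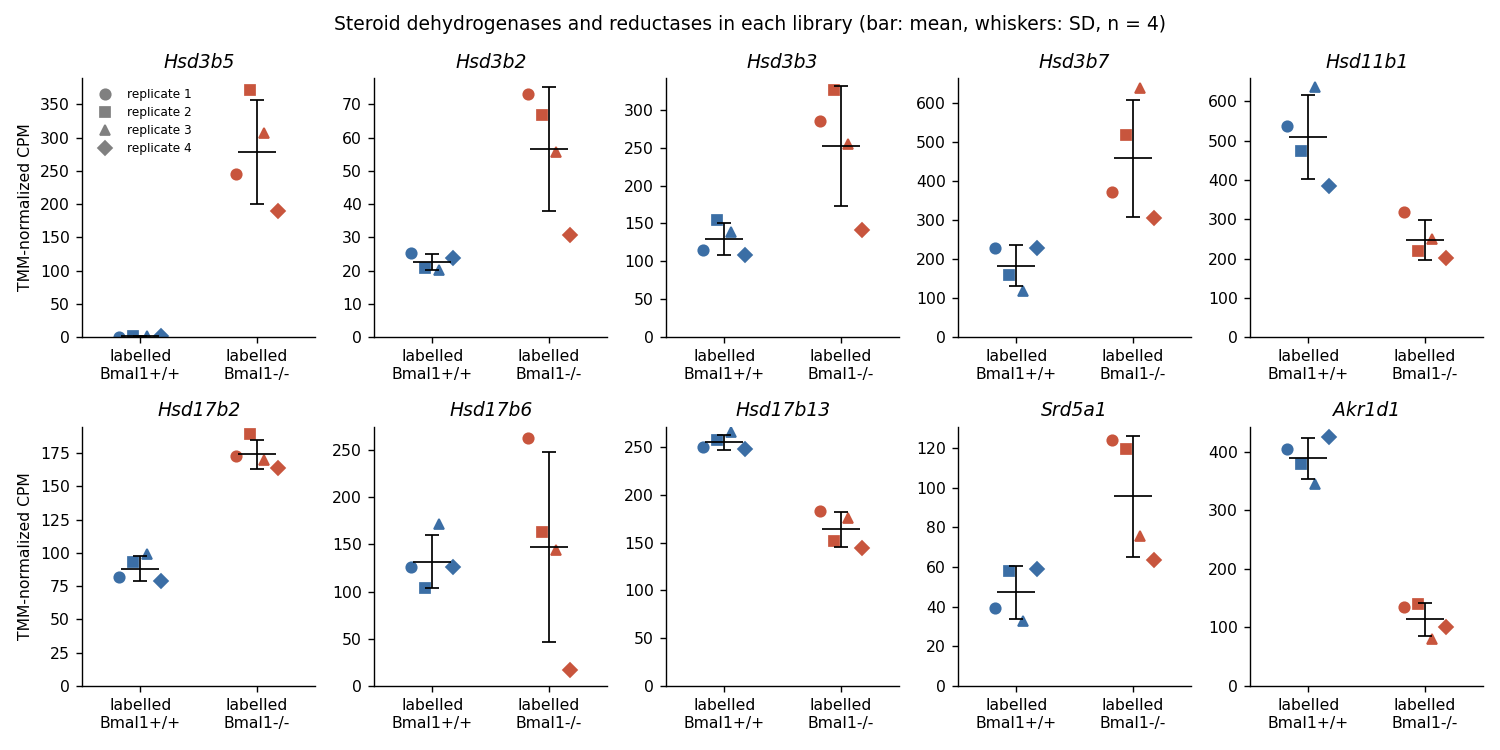
Normalized CPM of each gene (vertical axes, linear from 0) in the 4 libraries labelled Bmal1+/+ (blue) and the 4 libraries labelled Bmal1-/- (red); symbols mark replicate numbers, which do not pair the samples, and bars give the mean with SD. Hsd3b5 lies at or below 2.02 CPM in every library labelled Bmal1+/+ and at or above 190.4 CPM in the others, and Hsd17b6 in replicate 4 of the libraries labelled Bmal1-/- lies at 17.4 CPM.

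**Figure D2:**
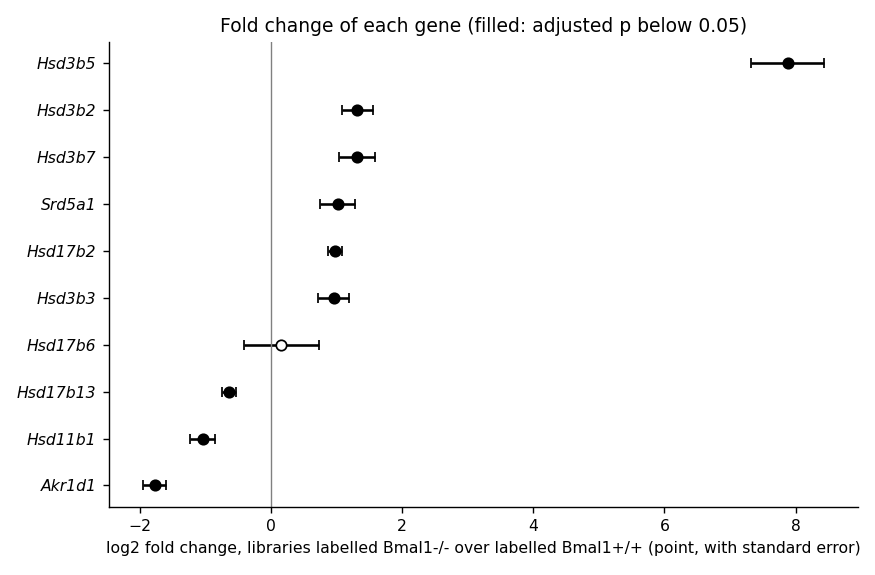
Log2 fold change of each gene from edgeR (horizontal axis, libraries labelled Bmal1-/- over those labelled Bmal1+/+) with its standard error. The values run from -1.77 for Akr1d1 to 7.88 for Hsd3b5, and the open point is Hsd17b6 at 0.16.

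The largest difference of the 10 was in Hsd3b5, a member of the 3-beta-hydroxysteroid dehydrogenase family that in mouse liver acts mainly as a ketosteroid reductase. In replicates 1 to 4 labelled Bmal1+/+ it was low, with 0.0602, 1.28, 2.02 and 1.39 CPM (counts of 1, 20, 30 and 25), of which the count in replicate 1 was below the detection floor. In replicates 1 to 4 of the libraries labelled Bmal1-/- it had 244.8, 371.3, 306.9 and 190.4 CPM. No library of one label came near the range of the other, and the means differed 234.5-fold. The log2 fold change was 7.88 (SE 0.56, adjusted p = 1.33e-05 by edgeR's test). It was 6.71 by limma on log2 of the deposited FPKM plus 1, where the added 1 exceeds most of the values labelled Bmal1+/+.

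Hsd3b2 and Hsd3b3 are neighbors of Hsd3b5 and belong to the same family, whose classical members convert pregnenolone to progesterone. Hsd3b2 had 25.5, 20.9, 20.3 and 23.9 CPM in replicates 1 to 4 labelled Bmal1+/+ and 73.0, 66.8, 55.8 and 30.8 CPM in those labelled Bmal1-/-. All values of the latter were higher, and the log2 fold change was 1.32 (SE 0.23, adjusted p = 0.00261 by edgeR's test). Hsd3b3 had 115.2, 154.5, 138.5 and 108.7 CPM in libraries labelled Bmal1+/+ and 284.8, 325.6, 255.2 and 141.1 CPM in the others. It rose by a log2 fold change of 0.96 (SE 0.24, adjusted p = 0.0126 by edgeR's test), although replicate 4 of the libraries labelled Bmal1-/- lay within the range of those labelled Bmal1+/+.

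These 3 genes lie in 1 cluster on the minus strand of chromosome 3 of GRCm38, Hsd3b5 from 98618634 to 98630252, Hsd3b2 from 98709255 to 98724543 and Hsd3b3 from 98741523 to 98763127, and Zfp697 is annotated on the opposite strand over all 3. Their coding sequences are alike: Hsd3b2 and Hsd3b3 are 95.1% identical, and each is 81.3% identical to Hsd3b5. The counting could therefore split reads among them. Of windows of 50 bases along the longest coding transcript, 25.5% in Hsd3b2, 28.7% in Hsd3b3 and 21.2% in Hsd3b5 occur unchanged in another transcript. Hsd3b4, whose windows all occur in other transcripts, had a count of 0 in every library labelled Bmal1+/+ and between 7 and 41 in the others.

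The 250 bases upstream of the RefSeq starts of these genes (for Hsd3b3, the more upstream start) are shown because the 3 neighbors moved together to unequal degrees (GRCm38.p6, minus strand, 5′ to 3′). Capitals mark the longest run of bases, 24, that the windows of Hsd3b5 and Hsd3b3 share. The windows are chr3:98645535-98645784 for Hsd3b5, chr3:98763129-98763378 for Hsd3b3 and chr3:98724544-98724793 for Hsd3b2, and the RefSeq start of Hsd3b5 lies 15282 bases upstream of the start in the GENCODE annotation.
Hsd3b5: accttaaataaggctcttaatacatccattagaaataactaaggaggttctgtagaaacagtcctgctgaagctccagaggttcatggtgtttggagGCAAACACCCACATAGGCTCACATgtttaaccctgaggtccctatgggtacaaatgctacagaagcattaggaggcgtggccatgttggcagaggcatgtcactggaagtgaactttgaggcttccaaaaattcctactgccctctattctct
Hsd3b3: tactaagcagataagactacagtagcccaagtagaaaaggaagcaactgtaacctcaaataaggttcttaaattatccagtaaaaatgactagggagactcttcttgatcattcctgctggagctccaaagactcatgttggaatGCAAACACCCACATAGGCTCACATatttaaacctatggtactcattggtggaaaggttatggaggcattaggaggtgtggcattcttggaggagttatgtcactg
Hsd3b2: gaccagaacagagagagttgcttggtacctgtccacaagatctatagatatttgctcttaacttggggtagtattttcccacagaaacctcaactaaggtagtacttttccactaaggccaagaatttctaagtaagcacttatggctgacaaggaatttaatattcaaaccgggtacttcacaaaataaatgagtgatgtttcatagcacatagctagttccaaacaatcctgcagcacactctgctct
The windows of Hsd3b3 and Hsd3b5 were 75.9% identical, those of Hsd3b2 and Hsd3b5 65.0% and those of Hsd3b2 and Hsd3b3 64.3%. Hsd3b2 shares no run above 8 bases with either. The upstream similarity of Hsd3b3 and Hsd3b5 was thus above that of Hsd3b2 and Hsd3b3, whose coding sequences are the closest pair. These percentages leave out gaps. By the same measure the window of Hsd3b7, outside the cluster, was 64.4% identical to that of Hsd3b3, 57.6% to Hsd3b5 and 57.5% to Hsd3b2.

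The makeup of the cluster differed between labels. Of the counts summed over Hsd3b1 to Hsd3b6, Hsd3b3 took between 80.7% and 87.3% in libraries labelled Bmal1+/+ and between 38.9% and 47.1% in those labelled Bmal1-/-. Hsd3b5 took between 0.0427% and 1.25% and between 40.5% and 52.5%, respectively. Hsd3b2 took between 11.8% and 18.1% and between 8.49% and 12.1%. Hsd3b1 and Hsd3b6, forms of steroid-producing glands, had at most 13 and 1 counts in any library. Summed to 1 row, which removes a split among these genes only, the cluster rose by a log2 fold change of 1.94 (SE 0.22, adjusted p = 0.000191 by edgeR's test). Reads shared with transcripts outside the sum are not covered.

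**Figure D3:**
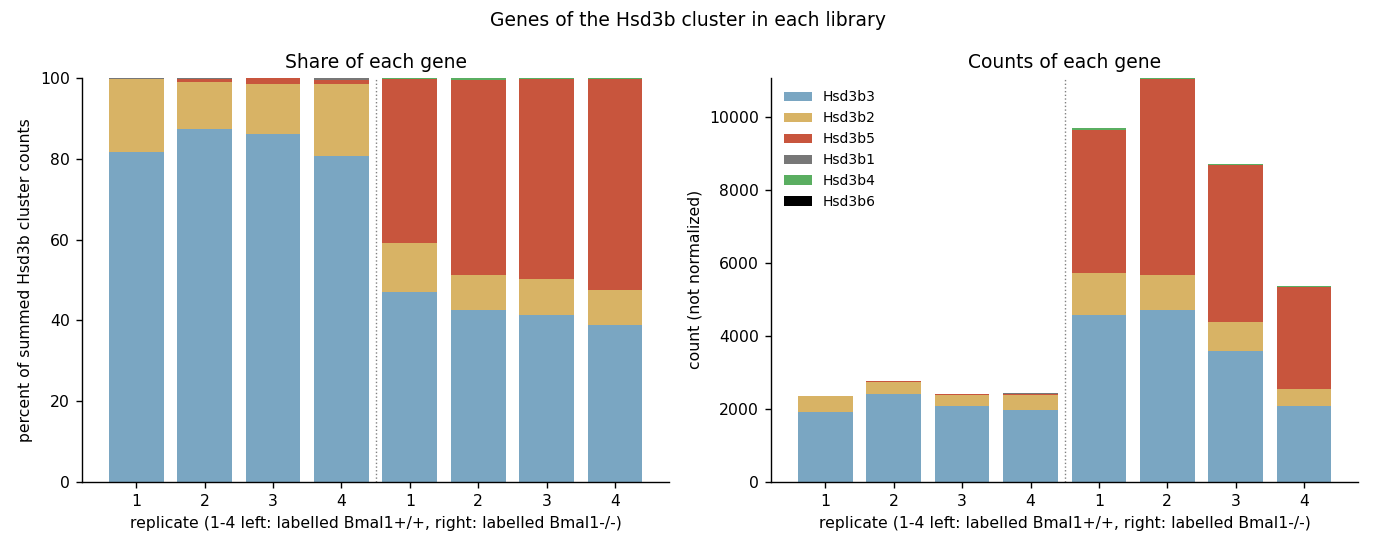
Genes of the Hsd3b cluster in each library, as the percent of the summed cluster counts (left) and as counts that are not normalized (right), replicates 1 to 4 labelled Bmal1+/+ followed by replicates 1 to 4 labelled Bmal1-/-. The red segment, Hsd3b5, takes at most 1.25% in libraries labelled Bmal1+/+ and at least 40.5% in the others.

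Hsd3b7, a more distant family member that acts on oxysterols in bile acid synthesis, lies on the plus strand of chromosome 7 from 127800604 to 127803802, and its coding sequence is between 62.6% and 64.6% identical to those of the cluster genes. It had 227.8, 159.0, 119.6 and 228.4 CPM in replicates 1 to 4 labelled Bmal1+/+ and 372.6, 518.6, 638.3 and 304.6 CPM in those labelled Bmal1-/-. The ranges did not overlap, and the log2 fold change was 1.32 (SE 0.27, adjusted p = 0.00577 by edgeR's test). Its count is uncertain in single libraries, since the overlapping gene Gm49388 on the same strand holds 93.9% of its windows of 50 bases. Gm49388 had 97.3 CPM in replicate 3 labelled Bmal1+/+ and 120.1 and 154.9 CPM in replicates 1 and 4 labelled Bmal1-/-, and at most 0.569 CPM in the other 5 libraries. For Hsd3b7 these 3 were the lowest library labelled Bmal1+/+ and the lowest pair labelled Bmal1-/-. With the counts of Gm49388 added, an alternative chosen after the data were seen, the values were 228.1, 159.3, 217.0 and 228.4 CPM against 492.7, 519.1, 638.9 and 459.5 CPM. The log2 fold change was then 1.34 with a smaller SE of 0.16 (adjusted p = 0.00027 by edgeR's test).

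Of the enzymes that set the activity of glucocorticoids and sex steroids, one fell and another rose. Hsd11b1, which regenerates active glucocorticoid from its inert keto form, lies on the minus strand of chromosome 1 from 193221634 to 193264075. It had 538.7, 472.7, 637.9 and 385.4 CPM in replicates 1 to 4 labelled Bmal1+/+ and 318.2, 218.6, 250.4 and 202.7 CPM in those labelled Bmal1-/-. The lowest value labelled Bmal1+/+ lay above the highest of the others, and the log2 fold change was -1.04 (SE 0.19, adjusted p = 0.00319 by edgeR's test). Hsd17b2, which oxidizes estradiol and testosterone to weaker steroids, lies on the plus strand of chromosome 8 from 117701904 to 117759027. Its values were even within each label, with 81.7, 93.2, 99.0 and 78.8 CPM against 172.5, 189.2, 169.7 and 164.0 CPM. Each library labelled Bmal1-/- was above each library labelled Bmal1+/+, and the log2 fold change was 0.98 (SE 0.11, adjusted p = 0.000176 by edgeR's test), just under the limit of the study's criterion. The ratio of the deposited FPKM of Hsd11b1 to that of Hsd17b2 was between 1.76 and 2.37 in libraries labelled Bmal1+/+. In the others it was between 0.416 and 0.664. This separation follows from the separate ranges of both genes and is no further result. Which gene is higher depends on the length used. Per kilobase of the longest coding transcript, Hsd11b1 had a mean of 310.8 and Hsd17b2 of 66.1 CPM in libraries labelled Bmal1+/+. In the others these means were 154 and 132.8 CPM, with ranges that overlapped.

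Genes that work with Hsd11b1 did not move in 1 direction. H6pd, which makes the NADPH that Hsd11b1 uses, rose from 340.1 ± 35.4 to 709.3 ± 213.6 CPM (SD, n = 4), with a log2 fold change of 1.06 (adjusted p = 0.0033 by edgeR's test). Serpina6, the plasma carrier of glucocorticoids, fell from 940.9 ± 130.0 to 56.4 ± 14.7 CPM, with a log2 fold change of -4.06 (adjusted p = 2.37e-06 by edgeR's test). Nr3c1, the glucocorticoid receptor, did not pass the test, with a log2 fold change of -0.38 (adjusted p = 0.148 by edgeR's test). Fkbp5, a chaperone of that receptor, fell, with a log2 fold change of -0.87 (adjusted p = 0.0126 by edgeR's test). Hsd11b2, the enzyme of the reverse reaction in kidney and colon, did not exceed 0.208 CPM in any library.

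Hsd17b13, a protein of hepatocyte lipid droplets, lies on the minus strand of chromosome 5 from 103955440 to 103977410. It had 249.8, 257.2, 265.5 and 247.7 CPM in replicates 1 to 4 labelled Bmal1+/+ and 182.8, 151.6, 176.3 and 144.8 CPM in those labelled Bmal1-/-. The values labelled Bmal1+/+ were nearly equal, with an SD of 0.05 on the log2 scale, and all lay above the others. The log2 fold change was -0.64 (SE 0.11, adjusted p = 0.00225 by edgeR's test).

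Hsd17b6, a retinol dehydrogenase-like enzyme that oxidizes androstanediol, lies on the minus strand of chromosome 10 from 127990936 to 128007611. It had 126.5, 103.7, 171.3 and 125.8 CPM in replicates 1 to 4 labelled Bmal1+/+. It had 262.4, 163.4, 144.2 and 17.4 CPM in replicates 1 to 4 labelled Bmal1-/-, so the highest and the lowest value of all 8 libraries both carried this label. The log2 fold change was 0.16 (SE 0.57, adjusted p = 0.861 by edgeR's test). Both of these libraries move it: the log2 fold change was -0.28 without replicate 1 of that label (adjusted p = 0.755 by edgeR's test) and 0.53 without replicate 4 (adjusted p = 0.106 by edgeR's test). Without replicate 4 the SD of log2 CPM among the libraries labelled Bmal1-/- was 0.46 in place of 1.74. Hsd17b6 shares 13.5% of its windows of 50 bases with other transcripts, among them Rdh16f1, so its count is less certain.

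The A-ring reductases moved in opposite directions. Srd5a1, a 5-alpha-reductase that makes dihydrotestosterone from testosterone, lies on the minus strand of chromosome 13 from 69573449 to 69611442. It had 39.1, 58.2, 32.7 and 59.0 CPM in replicates 1 to 4 labelled Bmal1+/+ and 124.0, 119.3, 75.8 and 63.6 CPM in those labelled Bmal1-/-. The ranges came close without overlap, and the log2 fold change was 1.02 (SE 0.26, adjusted p = 0.0155 by edgeR's test). Srd5a1 overlaps Nsun2 on the opposite strand, and whether the counting used strand is not given in the sources used here. It also overlaps Gm17108 on the same strand, which holds 16.5% of its windows of 50 bases. Gm17108 had means of 0.573 CPM under the label Bmal1+/+ and 0.890 CPM under Bmal1-/-.

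Akr1d1, the 5-beta-reductase that also serves bile acid synthesis, lies on the plus strand of chromosome 6 from 37530173 to 37568815. It had 404.4, 379.9, 345.5 and 425.9 CPM in replicates 1 to 4 labelled Bmal1+/+ and 134.2, 139.3, 80.8 and 100.5 CPM in those labelled Bmal1-/-. The groups lay far apart, with a 3.42-fold lower mean in the libraries labelled Bmal1-/-, and the log2 fold change was -1.77 (SE 0.18, adjusted p = 0.000115 by edgeR's test). The ratio of the deposited FPKM of Srd5a1 to that of Akr1d1 was 0.0731, 0.116, 0.0716 and 0.105 in libraries labelled Bmal1+/+ and 0.699, 0.647, 0.709 and 0.478 in the others. The ratios of both labels did not overlap, which follows from the separate ranges of the 2 genes and is no further result.

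The motifs searched on both strands in the 250 bases upstream of the RefSeq start of 9 of the 10 genes were CACGTG, TTCNNNGAA and TTATGNAA. CACGTG is the E-box to which Bmal1 binds, and TTCNNNGAA is a STAT site. TTATGNAA takes in only some of the sites of PAR bZIP factors and Nfil3. It is also looser, as it takes any base at N, so a match need not be such a site. Matches are a description of letters only. These genes have 11 windows, as Hsd3b3 and Hsd17b6 each have a further RefSeq start. CACGTG was in none of the 11 and in 6.02% of all 32851 RefSeq windows of this length. TTCNNNGAA was in that of Hsd3b7, 21 bases before the start, and in 7.02% of all windows. The window of Hsd17b13, a gene that fell, held no match to any motif. TTATGNAA was in those of Akr1d1 and Hsd11b1, the genes with the lowest fold changes, and in 3.07% of all windows. Both are shown for this reason (GRCm38.p6, 5′ to 3′, the motif in capitals), Akr1d1 at chr6:37529923-37530172 on the plus strand and Hsd11b1 at chr1:193242361-193242610 on the minus strand, 21715 bases downstream of the GENCODE start.
Akr1d1: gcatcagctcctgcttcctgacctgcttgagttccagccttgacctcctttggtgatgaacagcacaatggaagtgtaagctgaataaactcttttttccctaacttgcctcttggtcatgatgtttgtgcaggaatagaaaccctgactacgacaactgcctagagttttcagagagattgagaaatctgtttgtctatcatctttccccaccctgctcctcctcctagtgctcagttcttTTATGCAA
Hsd11b1: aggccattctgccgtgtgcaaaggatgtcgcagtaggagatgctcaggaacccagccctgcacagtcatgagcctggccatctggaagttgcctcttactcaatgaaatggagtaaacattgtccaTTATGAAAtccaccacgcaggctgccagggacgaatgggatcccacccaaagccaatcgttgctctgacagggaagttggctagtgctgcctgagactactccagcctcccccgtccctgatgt
The motif begins 8 bases before the start in Akr1d1 and 124 bases before it in Hsd11b1. The base at N is C in Akr1d1 and A in Hsd11b1, and binding was not tested. Hsd17b2 had no window in this table.

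The order of the 10 genes by level per length depends on the length used. By the deposited FPKM, Akr1d1 was the highest in libraries labelled Bmal1+/+ with 132 ± 10.9 (SD, n = 4), then Hsd17b13 with 95.7 ± 4.16 and Hsd11b1 with 80.0 ± 18.2, of which the last 2 overlap. Hsd3b5 was the lowest with 0.756 ± 0.528. In the libraries labelled Bmal1-/- Hsd3b5 was the highest with 181.6 ± 53.5, followed by Hsd17b2 with 77.3 ± 6.31, Hsd3b7 with 65.7 ± 21.6 and Hsd17b13 with 62.7 ± 7.76, the last 3 of which overlap, and Hsd3b2 was the lowest with 9.55 ± 3.30. For 9 of the 10 genes the length in these FPKM exceeds that of the longest coding transcript in GENCODE, for Hsd3b3 8314 against 1533 bases and for Hsd11b1 6305 against 1623, while for Hsd3b5 both are 1549 bases. Per kilobase of that transcript, Hsd11b1 was the highest in libraries labelled Bmal1+/+ with 310.8 ± 70.6 CPM per kilobase, and in the others Hsd3b7 with 253.1 ± 83.2, then Hsd3b5 with 181.6 ± 53.5 and Hsd3b3 with 166.3 ± 55.0, which overlap. On both scales Hsd3b5 was last in libraries labelled Bmal1+/+ and first or second in the others, and Hsd3b2 was last in the latter.

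The 4 lists of other genes of steroid metabolism, grouped by role, held 37 tested genes, of which 13 fell and 2 rose. Over all tested genes 16.2% fell and 14.9% rose, which is the background for the counts of each list. Of 10 tested hydroxysteroid dehydrogenases outside the 10 genes, 4 fell and 1 rose, with a median log2 fold change of -0.27. Rdh16, a retinol and steroid dehydrogenase, fell by 3.09 on the log2 scale, from 232.0 ± 19.6 to 27.1 ± 9.78 CPM (SD, n = 4). Rdh9 fell by 1.90, Hsd17b7, which acts in cholesterol and estradiol synthesis, by 1.26 and Hsdl2 by 0.77, while Dhrs9 rose by 2.35 from a low level of 0.96 ± 0.85 CPM. Hsd17b4, an enzyme of peroxisomal oxidation, had 462.1 ± 35.2 and 390.9 ± 63.4 CPM, Hsd17b11 had 168.0 ± 5.22 and 136.2 ± 38.8 CPM and Hsd17b12 had 137.4 ± 14.9 and 119.8 ± 33.0 CPM, and none of these 3 passed the test.

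Of 11 tested reductases and aldo-keto reductases, 2 fell and 0 rose, with a median of -0.33. Akr1c19 fell by 2.06 on the log2 scale, from 122.1 ± 9.44 to 29.3 ± 9.87 CPM, and Dhcr7, the last enzyme of cholesterol synthesis, fell by 1.37. Akr1c6, an abundant liver hydroxysteroid dehydrogenase, had 784.4 ± 64.9 and 1101 ± 299.3 CPM and did not pass the test (adjusted p = 0.0946 by edgeR's test). Akr1c14, a 3-alpha-hydroxysteroid dehydrogenase, had 547.4 ± 87.3 and 407.8 ± 143.8 CPM, and Akr1c20 130.1 ± 19.9 and 98.3 ± 20.1 CPM.

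Of 8 tested steroidogenic enzymes and cofactor genes, 2 fell and 1 rose, with a median of -0.22. Cyp17a1, the 17-alpha-hydroxylase and lyase, had 384.0, 190.2, 95.7 and 340.5 CPM in replicates 1 to 4 labelled Bmal1+/+ and 1.19, 0.208, 0.427 and 2.92 CPM in those labelled Bmal1-/-. Every library of that label was lower, with a log2 fold change of -7.72 (SE 0.73, adjusted p = 6.8e-05 by edgeR's test). Por, the reductase that feeds electrons to these P450 enzymes, fell by 2.75, from 1062 ± 237.4 to 157.9 ± 40.7 CPM. Cyp21a1 had a count of 0 in every library labelled Bmal1+/+ and between 5 and 55 in the others, and Cyp11b1, Cyp11b2 and Cyp19a1 were at 0 in all 8. Fdx1, a mitochondrial electron carrier, had 127.0 ± 12.4 and 108.1 ± 26.3 CPM and Cyb5a, which aids Cyp17a1, had 579.2 ± 11.9 and 518.3 ± 46.2 CPM, and neither passed the test.

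Of 8 tested receptors and carriers, 5 fell and 0 rose, with a median of -0.98. Besides Serpina6 and Fkbp5, the estrogen receptor Esr1 fell by 3.72 on the log2 scale, from 97.6 ± 8.86 to 7.39 ± 6.77 CPM, and the mineralocorticoid receptor Nr3c2 fell by 1.24. Pgrmc1, a heme protein that binds P450 enzymes, had 1276 ± 53.7 and 1047 ± 130.0 CPM and did not pass the test (adjusted p = 0.132 by edgeR's test). Shbg, the carrier of sex steroids, was at 0 in every library.

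**Figure D4:**
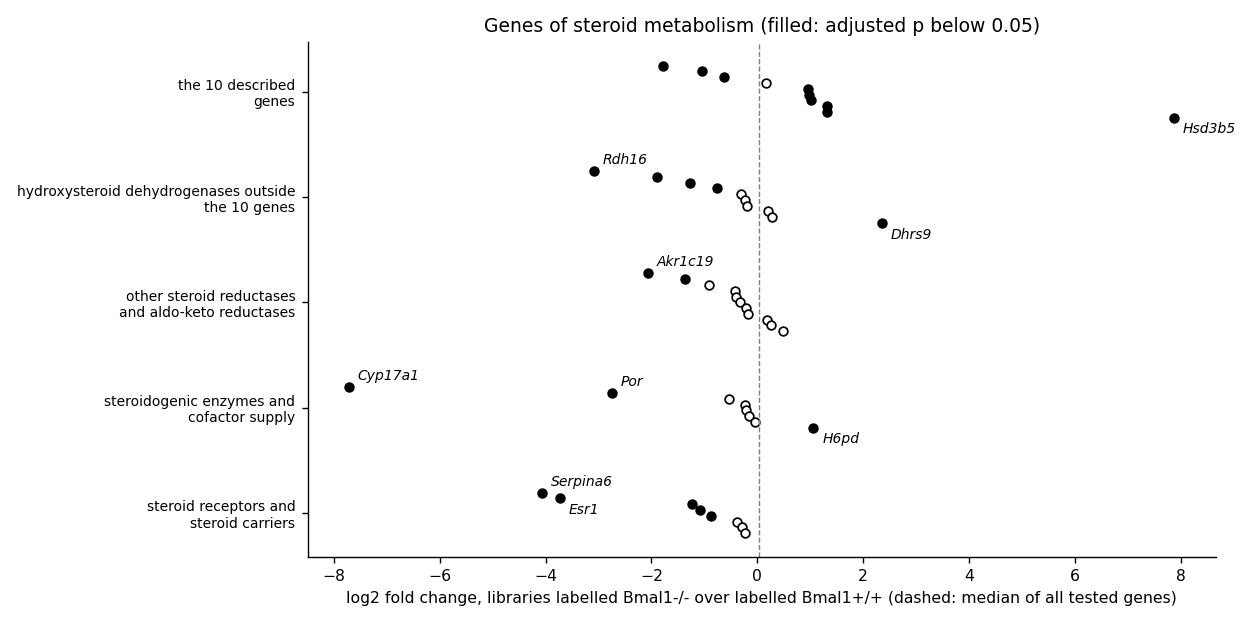
Log2 fold change (horizontal axis, libraries labelled Bmal1-/- over those labelled Bmal1+/+) of the 10 described genes and of the tested genes of 4 other lists of steroid metabolism, 1 point a gene, filled where the adjusted p was below 0.05. Cyp17a1 at -7.72 and Hsd3b5 at 7.88 lie farthest from the median of all tested genes at 0.02.

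Replicate 4 labelled Bmal1-/- was the lowest library of its label for 9 of the 10 genes, all but Akr1d1, against 30% of all tested genes. Its log2 ratio to the mean of the other 3 was -3.44 for Hsd17b6, -1.08 for Hsd3b2, -1.03 for Hsd3b3, -0.74 for Srd5a1 and for Hsd3b7, -0.69 for Hsd3b5, -0.37 for Hsd11b1, -0.23 for Hsd17b13 and for Akr1d1 and -0.11 for Hsd17b2. Hsd17b6, Hsd3b2 and Hsd3b3 lay below the 5th percentile of all tested genes, which was -0.85, and the median was -0.02. For Hsd3b7 with Gm49388 added the ratio was -0.26. In the same library 8 acute-phase genes, which the liver induces in inflammation, summed to 36970 CPM, against at most 4295 CPM in the other 7, and the part of this in the low values was not tested. Genes that rose kept their direction without it, with log2 fold changes of 1.53 for Hsd3b2 and 1.16 for Hsd3b3.

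**Figure D5:**
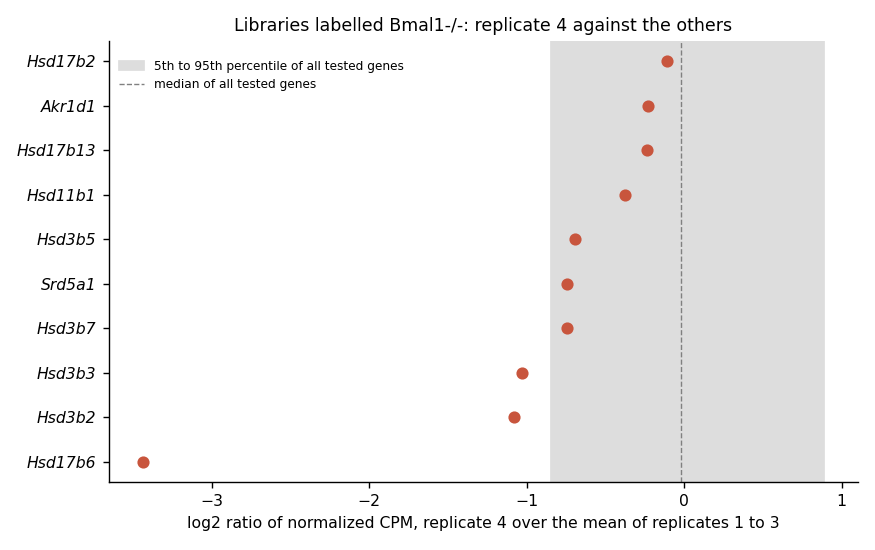
Log2 ratio of normalized CPM in replicate 4 over the mean of replicates 1 to 3 (horizontal axis), all labelled Bmal1-/-, for each of the 10 genes; the band spans the 5th to 95th percentile of all tested genes and the dashed line is their median. Points left of the band are Hsd17b6 at -3.44, Hsd3b2 at -1.08 and Hsd3b3 at -1.03.

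The tested gene whose profile was most like that of each changed gene was found among 13398 others by the root mean square difference of centred log2 CPM over the 8 libraries, a description, since all profiles share the difference between labels. The closest match was Thra, a thyroid hormone receptor, to Hsd17b2, at a difference of 0.071. It was Dnaja1, a heat shock cochaperone, for Hsd17b13 (0.083), Gstm6, a glutathione transferase, for Hsd3b2 (0.146), Lrmp for Hsd11b1 (0.146), the collagen Col14a1 for Akr1d1 (0.152), the carboxylesterase Ces3b for Hsd3b3 (0.157), Cpeb2 for Srd5a1 (0.188) and Leap2, an antimicrobial peptide of liver, for Hsd3b7 (0.193). Hsd3b5 had no close match: the nearest was Cyp4a12a, a fatty acid hydroxylase of male mice, at 0.651, which rose from 0.144 to 72.3 CPM. The lower of these means is below the detection floor. Hsd3b5 had few counts in libraries labelled Bmal1+/+, with an SD of 1.70 on the log2 scale, so this difference rests in part on low counts.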

How the data were processed

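RNA sequencing libraries of 4 samples labelled Bmal1+/+ and 4 Bmal1-/- were compared. The authors deposited counts of fragments per gene, whole numbers that are not normalized, and FPKM values, made by dividing the counts by library size and gene length. The paper names HISAT2, StringTie and build GRCm38, whereas the submitters' processing notes name TopHat2 2.0.6 and CASAVA 1.8, so which aligner made the counts is not settled. Strand use in counting is not given in the sources used here.

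From the counts, log2 fold changes and normalized CPM were computed with edgeR 4.0.16 in R 4.3.3 (filterByExpr, TMM, glmQLFit and glmQLFTest, prior count 0.125), with Benjamini-Hochberg adjustment over 14353 genes. A gene was called at an adjusted p below 0.05, and the ratio of fold change to the root of F gave standard errors. P-values measure the spread between samples, which the labels number without naming animals. Symbols and coordinates are from GENCODE for GRCm38, and 99.4% of identifiers matched. Promoters are from RefSeq, with motifs searched by Python 3.11.15 and Biopython 1.88. Figures were drawn with matplotlib 3.10.9.

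The 10 genes and the lists were chosen with earlier results of these data known. Named genes are the 10, Arntl, the called genes of 4 lists (values for at most 4 a list), list genes of at least 100 CPM on average, and 1 nearest profile for each called gene. The results of some genes that this rule names are not reported here. Hsd3b4, Cyp21a1, Gm49388 and other genes with few counts or shared sequence were named after their values were seen. Alternatives were DESeq2 1.42.0, other normalizations, limma 3.58.1 with voom or FPKM, filters, a prior count of 2, a replicate block and leaving out each library. The fit was tested on simulated data.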

Additional observations from a re-analysis of the deposited data

How the results depend on the processing

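The 9 called genes kept their direction and an adjusted p below 0.05 under every alternative that could test them; Hsd3b5 was not tested where at least 10 counts in every library were required. Hsd17b6, with a log2 fold change of 0.16, was -0.35 by limma-voom, -0.32 and -0.27 by limma on log2 FPKM plus 0.1 and plus 1, -0.23 with the replicate block and -0.28 without replicate 1 labelled Bmal1-/-, the lowest with a library left out (highest 0.53, without replicate 4); it was not called in any of these. Genes past the study's criterion numbered 1 lower with FPKM plus 1 (2 in the reported fit) and 2 higher with at least 10 counts in every library (4). With a library left out they numbered 1 to 2 lower and 3 to 6 higher. List genes that rose numbered 2, but 4 with no filter, 1 with at least 10 counts in every library and 2 to 4 with a library left out. Replicate numbers do not pair the samples: deviations from the group means correlated by -0.06 to 0.06 between same-numbered libraries, and with the block the 9 called genes stayed called, the list genes that fell numbered 14 (13 in the reported fit), and 2064 genes fell and 1809 rose of all tested (2322 and 2135). The summed Hsd3b cluster ranged from 1.79 to 2.12 with a library left out. Depth limits Hsd3b5 in libraries labelled Bmal1+/+, where replicate 1 had 1 count.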
